A study of Homo sapiens with 2 samples.

Results

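The genes described here are 10 components of the transforming growth factor beta (TGF-beta) pathway: the ligands TGFB1 and TGFB2, the receptors TGFBR1, TGFBR2 and TGFBR3, the signal carriers SMAD2, SMAD3 and SMAD4, the inhibitor SMAD7 and the ubiquitin ligase SMURF2. They are defined by gene name with no threshold on a measured value, though earlier results of these data were known when they were chosen, and were found on the array as the probes whose RefSeq accession belongs to 1 of the 10 genes. Each gene had 1 such probe, so that 10 of the 42405 probes carried the whole description. No member passed a 1.5-fold change in the same direction on both arrays, nor a lower threshold of 0.32 on the log2 scale. The lowest mean ratios were those of TGFB1, 1.32-fold lower with pre-miR-424, and SMURF2, at −0.26 on the log2 scale, and both genes were lower on both arrays.

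The cells were RWPE-1, a noncancerous line of prostate epithelial cells kept in serum-free medium for keratinocytes. They were transfected at 30 nM with a precursor of miR-424 (Pre-miR-424) or with Negative control #1, and the RNA of both transfections was hybridised together to 2 two-colour Agilent arrays. On the first array, with normal labelling, the pre-miR-424 RNA carried Cy5 and the control RNA carried Cy3, and the dye swap reversed this. The arrays were technical replicates of 1 comparison in 1 line, so n = 1 and no p-value is given; the SD quoted for a member is that between the 2 arrays and measures labelling and hybridisation, not the spread between cultures. Bulk RNA cannot tell a change in the number of expressing cells from a change in RNA per cell.

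TGF-beta ligands are secreted in a latent form and, once released, bind the type II receptor TGFBR2, which phosphorylates the type I receptor TGFBR1. The activated TGFBR1 phosphorylates SMAD2 and SMAD3, which join SMAD4, enter the nucleus and regulate transcription. SMAD7 and SMURF2 act against the signal by directing active receptors to ubiquitination, and in prostate epithelium the pathway is best known for holding back proliferation. A microRNA pairs through its seed with sites in messenger RNAs, mostly in their 3′ untranslated regions, and lowers the stability or translation of the message. An array reads only the first of these effects and cannot show a protein that is translated less.

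The transfected precursor yields miR-424-5p, and the mature human microRNAs that share its seed are printed because the seed sets which messages it can pair with. The sequences are RefSeq's for GRCh38.p14, from 5′ to 3′, with the seed (bases 2 to 8) in capitals.
hsa-miR-424-5p: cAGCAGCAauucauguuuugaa
hsa-miR-497-5p: cAGCAGCAcacugugguuugu
hsa-miR-195-5p: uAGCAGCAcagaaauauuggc
hsa-miR-16-5p: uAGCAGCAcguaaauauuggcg
hsa-miR-15a-5p: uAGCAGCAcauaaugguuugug
hsa-miR-15b-5p: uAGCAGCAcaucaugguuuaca
hsa-miR-6838-5p: aAGCAGCAguggcaagacuccu
miR-424-5p lies on the minus strand of chromosome X at chrX:134546680-134546701. All 7 share bases 2 to 8, and those of miR-424-5p and miR-497-5p are also preceded by the same first base, c. The level of miR-424 itself was not measured here, and no untranslated region was searched for the complement of the seed.

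The label of the cells was set against marker genes. All 6 basal markers of the prostate (KRT5, KRT14, TP63, ITGB4, ITGA6 and CDH3) were well above background, and so were 2 of 6 luminal markers, KLK2 among them, while the luminal marker KLK3 was not. Of the markers of other cells, 2 of 5 for fibroblasts, 3 of 4 for leukocytes and 1 of 3 for endothelium were well above background, and their part in the values below was not tested. Of all probes, 25664 were measured, which means that both dyes stood well above background on each array and no spot was marked as an outlier, and they represented 13812 genes. No probe was saturated.

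All values below are log2 ratios of pre-miR-424 over control, with the sign of the swapped array turned, or normalized signals on the log2 scale. Each signal is compared only with that of the same probe in the other transfection, because probes differ in how well they bind. All 10 member probes were well above background in every channel. Of these, 8 counted as measured, and the SMAD3 and SMAD4 probes did not because 1 of their 10 spots was marked as an outlier on 1 array.

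TGFB1 encodes the main TGF-beta ligand of most tissues. Its signal was 9.29 with pre-miR-424 and 9.52 with control on the normal array, and 9.02 against 9.60 on the swap. The pre-miR-424 signal was therefore the lower one on both arrays, with ratios of −0.23 and −0.58 and a mean of −0.40 ± 0.25 (SD between arrays). The TGFB1 probe was printed 10 times on each array, which shows how far the ratio scatters within an array. All 10 spots were below 0 on both arrays, between −0.37 and −0.02 on the normal array (SD 0.11) and between −0.69 and −0.50 on the swap (SD 0.062). The spots of the 2 arrays did not overlap, so that the gap between arrays exceeded the scatter of spots. On the swap alone TGFB1 was past the lower threshold, and on the normal array alone it was not. Of all measured probes, 4.48% had a mean ratio at least as large in size.

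TGFB2 encodes a second ligand that binds TGFBR2 well only with the help of TGFBR3. Its signal was 7.96 in both transfections on the normal array, and 8.02 with pre-miR-424 against 7.78 with control on the swap. The ratios were 0.0052 and 0.23, with a mean of 0.12 ± 0.16, so TGFB2 was above 0 on the swap and level with control on the normal array. Its 2 spots lay on both sides of 0 on the normal array, at −0.01 and 0.02. The difference between the 2 ligands was not tested, since there is no replicate of the comparison.

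TGFBR1 is the type I receptor kinase that activates the SMADs. Its signal was 7.89 with pre-miR-424 and 7.82 with control on the normal array, and 8.11 against 7.92 on the swap. Both ratios were above 0, at 0.067 and 0.19, with a mean of 0.13 ± 0.089. TGFBR2, the type II receptor that binds the ligand first, gave the closest repeat among the receptors. Its signals were 13.89 with pre-miR-424 and 13.85 with control on the normal array, and 13.87 against 13.89 on the swap. The ratios of 0.04 and −0.02 had a mean of 0.0078 ± 0.045, and the 2 spots on each array were within −0.03 and 0.06. TGFBR3, or betaglycan, presents ligand to TGFBR2 and has no kinase. Its signal was 7.02 with pre-miR-424 and 7.20 with control on the normal array, and 7.06 against 7.13 on the swap. Both ratios were below 0, at −0.18 and −0.07, with a mean of −0.13 ± 0.076.

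The plot of every spot shows that the 10 spots of TGFB1 were below 0 on both arrays, as were the 2 spots of TGFBR3 and of SMURF2, while each of the other members had spots on both sides of 0.

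**Figure D1:**
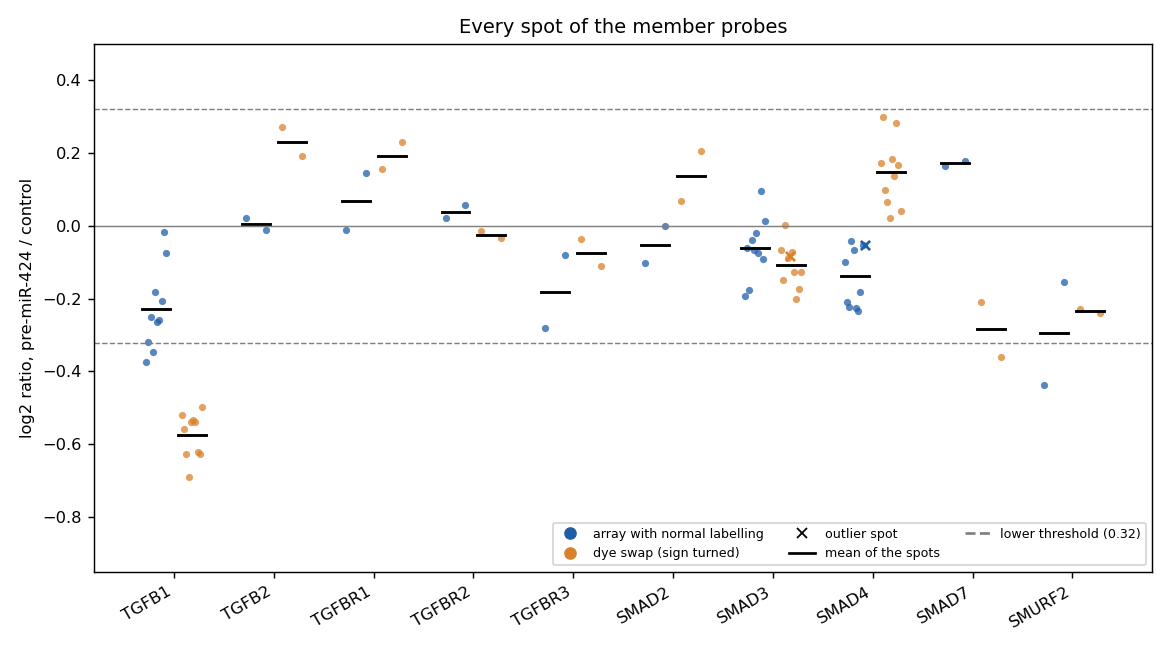
Log2 ratio of pre-miR-424 over control for each spot of the 10 member probes, blue for the array with normal labelling and orange for the dye swap with its sign turned. Black bars are the mean of the spots on an array, crosses are the 2 outlier spots and dashed lines mark the lower threshold (0.32); TGFB1 had means of −0.23 and −0.58, and SMAD4 changed sides between the arrays.

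SMAD2 carries the signal from the receptor to the nucleus. Its signal was 8.57 with pre-miR-424 and 8.62 with control on the normal array, and 8.63 against 8.50 on the swap. The ratios were −0.05 and 0.14, with a mean of 0.043 ± 0.13, and had opposite signs. SMAD3, the second receptor-activated carrier, binds DNA directly. Its signal was 11.76 with pre-miR-424 and 11.82 with control on the normal array, and 11.77 against 11.88 on the swap. Both ratios were slightly below 0, at −0.06 and −0.11, with a mean of −0.085 ± 0.034. With 10 spots an array, 8 SMAD3 spots were below 0 under normal labelling and 9 on the swap. Leaving out the outlier spot kept the ratio of the swap at −0.11.

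SMAD4 is the common partner that both carriers need. Its signal was 9.35 with pre-miR-424 and 9.49 with control on the normal array, and 9.48 against 9.34 on the swap. The higher signal was that of the Cy3 channel on both arrays, whichever RNA it held. All 10 spots were below 0 on the normal array and none of the 10 on the swap, with ratios of −0.14 and 0.15. The mean was 0.0043 ± 0.20, and −0.15 replaced −0.14 on the normal array without the outlier spot. Here the dye swap mattered, since either array alone would have given SMAD4 a direction that the other reversed.

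SMAD7 is an inhibitory SMAD that TGF-beta itself induces and that blocks the activated TGFBR1. Its signal was 9.07 with pre-miR-424 and 8.89 with control on the normal array, and 8.80 against 9.09 on the swap. The ratios of 0.17 and −0.28 gave a mean of −0.056 ± 0.32, the widest gap between arrays among the members, and the Cy5 channel was the higher one on both. SMURF2, the ubiquitin ligase that SMAD7 brings to the receptor, gave a closer repeat. Its signal was 7.72 with pre-miR-424 and 8.01 with control on the normal array, and 7.995 against 8.23 on the swap. The lower signal was that of pre-miR-424 on both, with ratios of −0.30 and −0.23 and a mean of −0.26 ± 0.043. Its 2 spots were −0.44 and −0.16 on the normal array and −0.24 and −0.23 on the swap, all below 0. Of all measured probes, 12.4% had a mean at least as large in size, so a ratio of this size was not rare on these arrays.

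**Figure D2:**
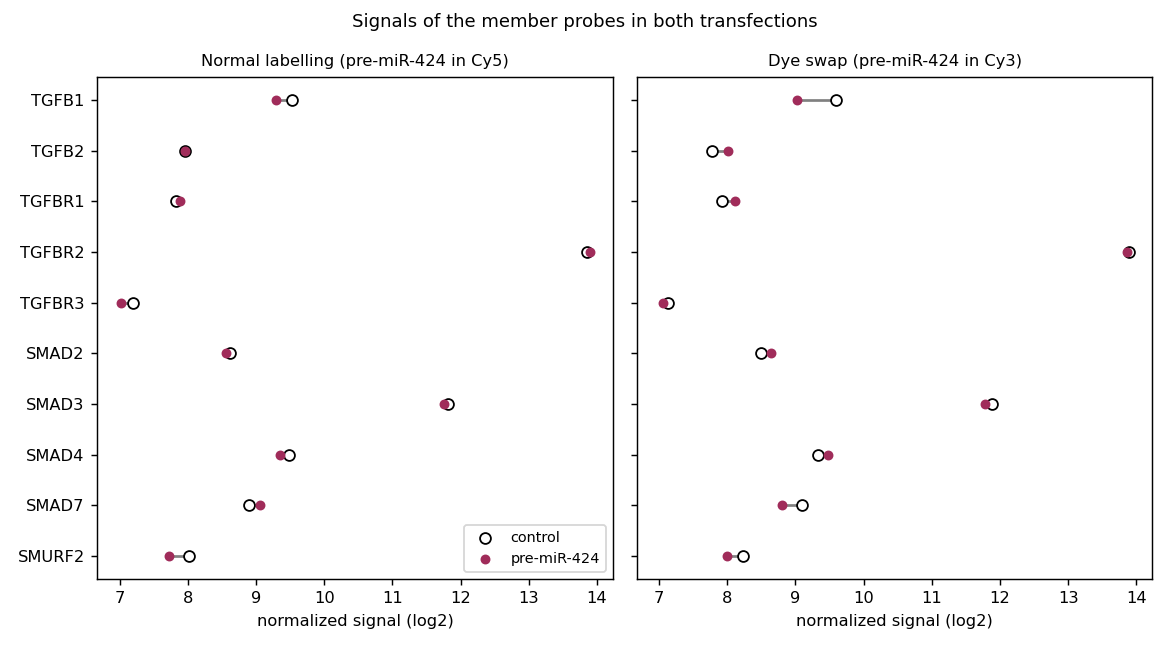
Normalized signal (log2) of each member probe with pre-miR-424 (filled) and with control (open), on the array with normal labelling at left and the dye swap at right. Pairs are compared within a row only: the filled point is left of the open one on both arrays for TGFB1, TGFBR3, SMAD3 and SMURF2, and the sides are exchanged between arrays for TGFBR2, SMAD2, SMAD4 and SMAD7.

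Counted together, 0 of the 8 measured members were higher and 0 lower by 1.5-fold or more on both arrays, against 0.623% and 0.391% of the 13812 measured genes. At the lower threshold the members' counts were again 0 and 0, against 2.38% higher and 2.29% lower among all measured genes. With shares this low, a list of 8 genes would often hold no called gene, and the count says little about the members. Signs repeated in 6 of the 10 members and in 5 of the 8 measured ones, against 53.5% of all measured genes. TGFB2 and TGFBR1 were above 0 on both arrays, which 26.8% of all measured genes were, and TGFB1, TGFBR3, SMAD3 and SMURF2 were below 0 on both, which 26.7% were. The median ratio over the 8 measured members was −0.023 under normal labelling and −0.049 on the swap, beside 0.0010 and −0.00019 over all measured genes. Over all 10 members, with SMAD3 and SMAD4 included, it was −0.056 and −0.049.

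How well a mean could be known was read from other probes of like signal. The ratios of the 2 arrays were split into the part they share, which is the mean, and the part that changes sign with the dye. Among the 1000 measured probes nearest in level to each member, the dye part had an SD between 0.12 and 0.16. It is only a rough guide to the error in a mean, because it also holds dye bias that repeats and cancels in the mean. Of the 13812 measured genes, 71 were higher in Cy5 by 1.5-fold or more on both arrays and 4 lower. The means of TGFB1 and SMURF2 were larger in size than the spread at their own level, that of TGFBR3 was about as large (−0.13 against 0.12), and those of the other 7 members were smaller. This spread covers labelling and hybridisation only.

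**Figure D3:**
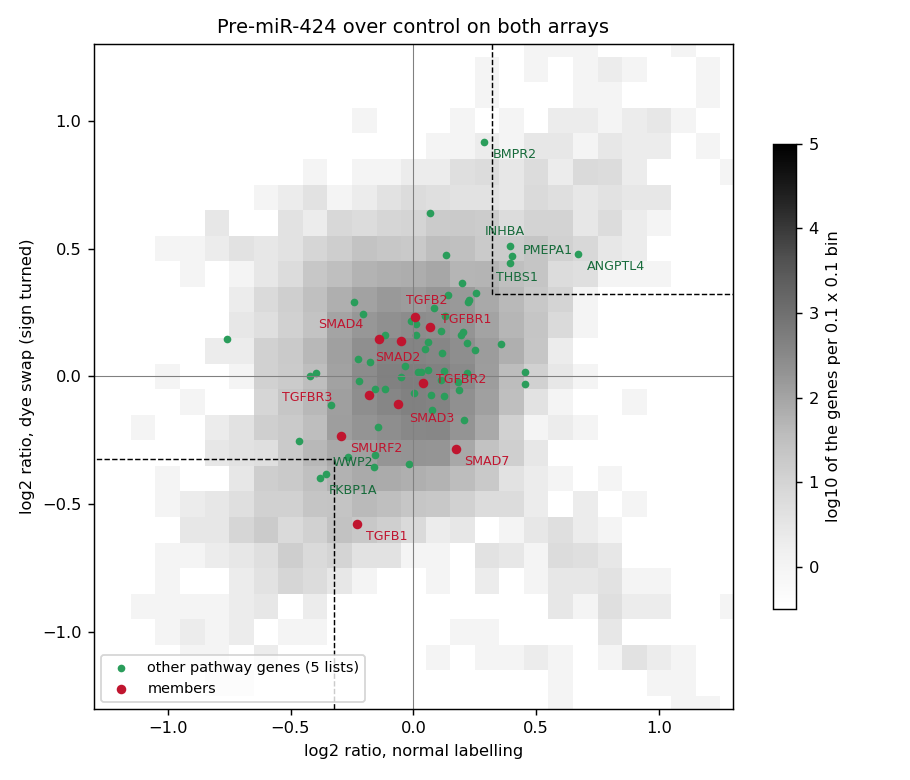
Log2 ratio of pre-miR-424 over control on the array with normal labelling (horizontal) against that on the dye swap with its sign turned (vertical), for the 10 members (red), 63 other genes of the pathway (green) and, as grey bins of 0.1 by 0.1, those of the 13812 measured genes that lie within the axes. The dashed corners mark the lower threshold (0.32) on both arrays; no member lies inside them and 6 of the other pathway genes do.

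The members were then set beside 71 other genes of the pathway in 5 lists, of which 70 had a probe and 63 were measured. None passed 1.5-fold on both arrays. At the lower threshold, 4 rose (6.35% of the 63) and 2 fell (3.17%), beside 2.38% and 2.29% of all measured genes. At any size, 31 of the 63 were above 0 on both arrays and 13 below, while the members had 2 and 3 of 8. The median of the mean ratios was 0.065 over the 63 genes, −0.024 over the 8 measured members and −0.0040 over all measured genes. These counts depend on the removal of the trend of the dye ratio with brightness. With each array only centred on its median, 15 of the 63 (23.8%) were above 0 on both arrays and 14 below. Of all 13812 measured genes, 2013 (14.6%) were above 0 on both arrays and 2873 below with this centring. None of the 6 genes stayed past the lower threshold with it.

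Among other ligands and proteins of latency, 2 of 12 measured genes (16.7%) rose at the lower threshold and none fell, beside 2.38% and 2.29% of all measured genes. In lists this short 1 or 2 genes make a large share, and the counts say little. INHBA, the subunit of activin A, which signals through SMAD2 and SMAD3 as TGF-beta does, had ratios of 0.39 and 0.51. THBS1, or thrombospondin 1, which can release TGF-beta from its latent form, had 0.40 and 0.44, and its second probe 0.35 and 0.25. Both rose while the ligand TGFB1 had ratios below 0. BMP4, a ligand of the bone morphogenetic protein branch, had 0.14 and 0.32 and did not pass.

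Among other receptors and co-receptors, none of the 9 measured genes passed, as none of TGFBR1, TGFBR2 and TGFBR3 did. With 2.38% of all measured genes higher and 2.29% lower, a list of 9 would often hold none. The type II receptor BMPR2 of the bone morphogenetic proteins had the largest mean, 0.60, from ratios of 0.29 and 0.92 that lay further apart than those of TGFBR2. The activin receptor ACVR2B had −0.47 and −0.25. BAMBI, a decoy receptor without a kinase, had 0.23 and 0.30.

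Among other SMADs and their partners, 1 of 12 measured genes (8.33%) fell and none rose, beside 2.29% and 2.38% of all measured genes. FKBP1A, which binds TGFBR1 and keeps it inactive without ligand, had ratios of −0.38 and −0.40 on its brightest probe, and all 5 of its probes were below 0 on both arrays. The weakest of these had −0.12 and −0.0067, and the call was made on 1 of the 5 probes and ended when the probes were averaged. SKIL, a co-repressor that binds SMAD2, SMAD3 and SMAD4, had 0.25 and 0.33, and SMAD1, a carrier of the bone morphogenetic protein branch, had 0.46 and 0.02.

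Among the ubiquitin ligases and deubiquitinases, the class of SMURF2, 1 of 9 measured genes (11.1%) fell and none rose. Of all measured genes, 2.29% fell and 2.38% rose. WWP2, a ligase of the same HECT family that acts on SMADs, had −0.36 and −0.38. SMURF1, the closest relative of SMURF2, had −0.76 and 0.15, so that the 2 arrays gave it opposite signs where they gave SMURF2 the same one. WWP1, a further HECT ligase, had −0.34 and −0.11. The deubiquitinase USP15, named after its values were seen, showed how 2 probes of a gene can differ: −0.18 and 0.06 on the brightest and −0.40 and −0.41 on the other.

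Among 21 measured genes that TGF-beta is known to regulate, 2 (9.52%) rose at the lower threshold and none fell, beside 2.38% and 2.29% of all measured genes. At any size, 12 were above 0 on both arrays (26.8% of all measured genes were) against 3 below (26.7%). ANGPTL4, a secreted protein, had 0.67 and 0.48. PMEPA1, which is induced by TGF-beta and limits its signal, had 0.40 and 0.47, and its second probe 0.31 and 0.30. CCN2, or connective tissue growth factor, had 0.07 and 0.64 and did not pass. The median of the 21 mean ratios was 0.18, with 0.18 under normal labelling and 0.13 on the swap. With each array only centred on its median these medians were 0.31 and −0.16, beside 0.13 and −0.23 over all measured genes. With this centring 8 of the 21 genes (38.1%) were above 0 on both arrays and 3 below. Of all 13812 measured genes, 2013 (14.6%) were above and 2873 below. Outside the rule for naming, and chosen after their values were seen, the 3 genes below 0 on both arrays as reported were VIM, JUNB and CDKN1A. VIM had −0.27 and −0.31, JUNB had −0.15 and −0.31, and CDKN1A, an inhibitor of the cell cycle, had −0.16 and −0.35. The close repeat of VIM depended on the processing. It had 0.31 and −0.95 with median centring, and −0.52 and −0.09 with the scanner software's log ratios. JUNB and CDKN1A stayed below 0 on both arrays in both of these settings. The list therefore held genes on both sides of 0, and no member of the signalling core had ratios as large on both arrays as ANGPTL4 or PMEPA1.

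**Figure D4:**
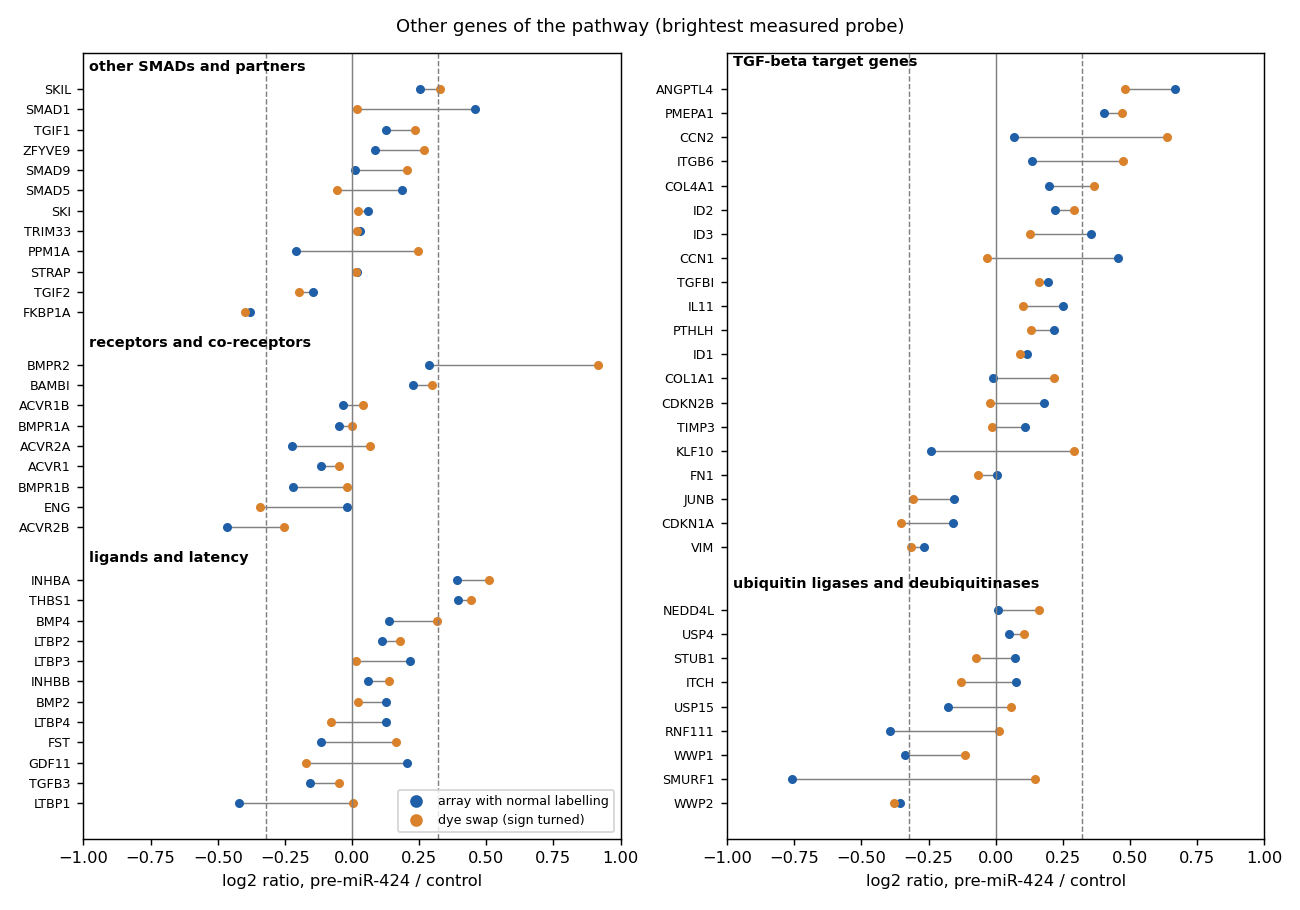
Log2 ratio of pre-miR-424 over control for measured genes of the 5 pathway lists, blue for the array with normal labelling and orange for the dye swap with its sign turned, joined by a line for each gene. Dashed lines mark the lower threshold (0.32); INHBA, THBS1, PMEPA1 and ANGPTL4 are past it to the right on both arrays, and FKBP1A and WWP2 to the left.

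The mean ratios of the members were compared under 7 ways of processing both arrays, which include the reported one. The 7 are not independent. Dropping outlier spots singly could change only SMAD3 and SMAD4, and the authors' log2 ratios nearly repeat the reported values. The mean of TGFB1 was between −0.46 and −0.40 and that of SMURF2 between −0.33 and −0.26. Both means were below 0 in all 7, as were those of TGFBR3 and SMAD3. The means of TGFB2, TGFBR1 and SMAD2 were above 0 in all 7. A mean could keep its sign while the arrays differed. Median centring put SMAD3 at 0.099 under normal labelling and −0.39 on the swap. With the scanner software's log ratios, TGFBR3 had −0.30 and 0.0091, and TGFB2 had −0.08 and 0.49. Of the means near 0, those of TGFBR2 and SMAD4 were below 0 in 2 of the 7 and that of SMAD7 in 6. The mean of SMAD2 was also near 0: it fell to 0.00065 with median centring, and its reported arrays had opposite signs. For TGFBR2, median centring moved the arrays to 0.34 and −0.43, where the reported ratios were 0.04 and −0.02, and its mean to −0.05.

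**Figure D5:**
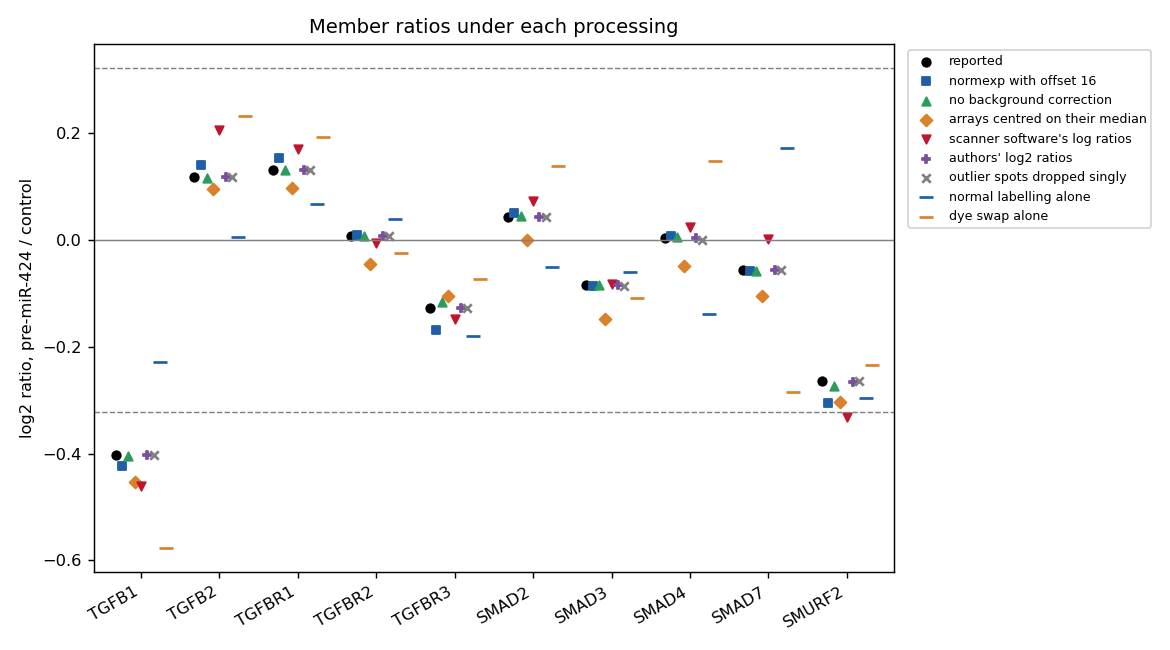
Mean log2 ratio of pre-miR-424 over control for each member under 7 ways of processing, and, as short bars, each array alone. Dashed lines mark the lower threshold (0.32); TGFB1 is the member whose mean is past it in every way of processing both arrays, between −0.46 and −0.40, and its normal array alone, at −0.23, is not.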

How the data were processed

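Total RNA of RWPE-1 cells was compared on 2 Agilent two-colour arrays. The authors deposited, per array, Feature Extraction 10.7.3.1 output with median signal and background intensity per spot, a log10 ratio of Cy5 over Cy3 and flag marks, and a table of log2 ratios, for which their notes name limma. That table held Cy5 over Cy3 with the swap not turned (r = 0.991 and 0.988 with the values computed here), and its column medians were 0.0236 and 0.0355. Its exact steps are not given in the sources used here. The array annotation is on hg19, and no coordinates from it were used.

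Here the intensities were corrected with normexp (offset 50) and normalized with loess within arrays in limma 3.58.1 (R 4.3.3), with Aquantile for signals only. Median raw signals were 119 to 224 over backgrounds of 27.5 to 70. Control spots were left out after normexp, replicate spots were averaged per probe, and the swap's sign was turned. The brightest measured probe stood for its gene, which was called when both arrays passed 1.5-fold (or the lower threshold of 0.32 on the log2 scale) in 1 direction, with no test. RefSeq genes were found for 25771 (95.0%) of the 27134 probes that carry such an accession. The normalization and the 1.5-fold call rule were run on simulated data with changes larger than any member's mean ratio. The lower threshold, and changes of the size of the members', were not covered.

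Named were all members, every pathway gene past the lower threshold and, in lists with fewer than 3 of these, the largest mean ratios up to 3 a list. Some list genes are not reported here by name. The members and lists were chosen with earlier results of these data known. The alternatives were the background correction, the centring, the scanner's log10 ratios, the authors' log2 ratios, filters, the choice of probe, thresholds and each array alone.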

Additional observations from a re-analysis of the deposited data

How the results depend on the processing

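No member passed 1.5-fold on both arrays under any alternative run, nor on either array alone as reported. On the swap alone TGFB1 did pass it with an offset of 16 (−0.60), the scanner software's log ratios (−0.63) and median centring (−0.78). At the lower threshold of 0.32 (log2) 1 member, TGFB1, passed without the normal array and with the threshold on the mean of the arrays, and 0 passed without the swap. The pathway count of 0 at 1.5-fold became 6 at the lower threshold, 1 (BMPR2) with the threshold on the mean, and 2 with either array alone (BMPR2 and CCN2 higher without the normal array, ANGPTL4 higher and SMURF1 lower without the swap). That count of 6 fell to 1, BMPR2, with each array centred on its median, and was 13 to 14 with 1 array (9 higher and 4 lower without the normal array, 7 and 7 without the swap). It was 8 with the scanner software's log ratios, which added BMP4 and BMPR2, and 5 with the probes of a gene averaged, which ended the call of FKBP1A. Apart from the lower threshold, no share of all measured genes is given for these alternatives. Their counts therefore cannot tell a change of the pathway genes from a looser or stricter rule. Median centring left the median of all measured probes at 0.10 under normal labelling and −0.18 on the swap, and its ratios are relative to that shift.

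Of 60 member values under the alternatives that used both arrays, 57 moved by less than the SD between arrays. The other 3 were TGFBR2 at −0.05 and SMAD3 at −0.15 under median centring, and SMURF2 at −0.33 with the scanner software's log ratios. The cause was not tested. The count of 57 includes values that could hardly move. Dropping outlier spots singly could change only SMAD3 and SMAD4, and the authors' log2 ratios nearly repeat the reported ones. Dropping outlier spots singly, and running the alternatives at the lower threshold, were chosen after the data were seen. No paired analysis was possible because each ratio was already taken within an array, and both arrays lay on 1 slide. Depth enters as signal over background: the ratios of the dimmer member probes, such as TGFBR3, depend most on the offset.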
